A study of Mus musculus with 6 samples.

Results

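The genes described were 10 of the 54532 Ensembl gene IDs measured in NeuT/ATTAC mammary tumors, namely the MHC class I heavy chains H2-K1, H2-D1, H2-Q4, H2-Q6, H2-Q7, H2-T22 and H2-T23, their light chain B2m, the peptide transporter subunit Tap1 and the transactivator Nlrc5. They were found by symbol in the GRCm38 annotation and had been chosen by their lower values in anti-PD-1-treated tumors of this same comparison. Their differences between the groups are thus given as a description, with no p-value for any single gene.

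RNAseq was performed on 3 tumor samples from IgG-treated and 3 from anti-PD-1-treated mice by the sample labels, each taken here as 1 tumor with 1 library. The mice carried MMTV-NeuT, an Erbb2 transgene driven by the mammary tumor virus promoter, and FAT-ATTAC, through which AP20187 ablates adipocytes and leads to mammary fibrosis. AP20187 (0.4 mg/kg) was given to both groups, starting at 6 weeks, biweekly by the sample labels and triweekly by the methods, and then 100 µg of either antibody 2 times per week from 8 weeks of age. The anti-PD-1 mAb is specific for the mouse protein and the IgG matches its isotype. FAT-ATTAC mice came on a C57BL/6 background and were crossed into FVB, so that stretches of C57BL/6 genome can remain. A figure legend of the study speaks of RNA pooled within each group, whereas 3 samples per group with different values were used here. Whether each sample holds 1 tumor is thus not certain, and p-values measure the spread between these samples, which may be technical.

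Of 7 markers of mammary tumor epithelium, all of which were expressed, Krt8 ranged from 426 to 1035 FPKM, Krt18 from 678 to 1377 FPKM and Epcam from 683 to 1142 FPKM. Adipoq, the defining adipocyte gene, stayed at or below 1.18 FPKM. The values are FPKM, the fragments counted on a gene scaled to the length of its exons and to the size of the library, and can be set side by side between genes. Between 21075641 and 23852764 reads per tumor stood behind them. These are bulk tumors, in which fewer cells of a type and less RNA per cell cannot be told apart.

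Class I molecules consist of a polymorphic heavy chain and beta-2 microglobulin, and display peptides from inside the cell to CD8 T cells and to receptors of NK cells. The classical heavy chains of mice are made by H2-K1 and H2-D1 in nearly all nucleated cells, while the nonclassical H2-Q and H2-T genes are less polymorphic and more restricted. Peptides reach the heavy chains through the TAP transporter, and NLRC5 is recruited by RFX and CREB family proteins to a conserved promoter module, called SXY, of the heavy chain and B2m genes.

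Because these genes moved together from tumor to tumor, their promoters were read from the RefSeq promoter table (GRCm38.p6), which spans 250 bases before to 50 bases after each start and matched 9 of the 10 genes. Searched on both strands were an NF-kB site spelled GGGGATTCC, the core of an interferon-stimulated response element spelled AANNGAAA, the X2 box of the SXY module spelled TGNTGAC and the Y box spelled ATTGG. The stretches run 5′ to 3′ and hold the matches that lie before the start, which are in capitals, with 4 more bases at either end. The RefSeq start lies 364 bases from the start of the annotated gene for H2-D1 and 154 for H2-T23. The stretches of these genes therefore lie inside the gene spans given further below.
H2-K1 (chr17:34000355-34000462, reverse strand): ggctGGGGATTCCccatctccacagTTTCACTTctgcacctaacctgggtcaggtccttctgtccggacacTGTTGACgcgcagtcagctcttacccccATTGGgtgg
H2-D1 (chr17:35262919-35263049, forward strand): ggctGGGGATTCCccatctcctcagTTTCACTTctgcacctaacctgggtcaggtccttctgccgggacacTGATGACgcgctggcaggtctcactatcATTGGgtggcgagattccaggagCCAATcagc
H2-Q6 (chr17:35424673-35424803, forward strand): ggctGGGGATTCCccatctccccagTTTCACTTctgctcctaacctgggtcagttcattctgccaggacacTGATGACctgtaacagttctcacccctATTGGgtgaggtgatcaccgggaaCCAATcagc
H2-Q7 (chr17:35439018-35439147, forward strand): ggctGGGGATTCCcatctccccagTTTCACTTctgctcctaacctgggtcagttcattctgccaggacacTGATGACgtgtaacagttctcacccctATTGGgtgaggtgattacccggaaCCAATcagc
H2-Q4 (chr17:35379460-35379570, forward strand): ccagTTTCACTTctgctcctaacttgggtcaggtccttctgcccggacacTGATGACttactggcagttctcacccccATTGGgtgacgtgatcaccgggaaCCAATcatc
H2-T22 (chr17:36042797-36042947, reverse strand): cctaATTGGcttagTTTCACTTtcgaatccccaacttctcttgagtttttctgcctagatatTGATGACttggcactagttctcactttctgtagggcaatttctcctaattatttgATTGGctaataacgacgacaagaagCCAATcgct
H2-T23 (chr17:36032710-36032829, reverse strand): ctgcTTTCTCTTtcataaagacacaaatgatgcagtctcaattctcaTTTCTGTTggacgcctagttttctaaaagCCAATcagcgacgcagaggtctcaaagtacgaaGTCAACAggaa
B2m (chr2:122147546-122147642, forward strand): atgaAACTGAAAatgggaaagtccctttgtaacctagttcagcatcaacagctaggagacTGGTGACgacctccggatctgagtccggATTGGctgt
The promoters of H2-K1, H2-D1, H2-Q6 and H2-Q7 held all 4 motifs. Only 6 of the 32851 promoters in the table (0.0183%) did so, and they belonged to these 4 genes and to Gm33973 on chromosome 1. From the first base of 1 motif to the first base of the next, the response element and X2 lay 46 bases apart in H2-K1, H2-D1, H2-Q4, H2-Q6 and H2-Q7, 48 in H2-T22 and 56 in B2m. X2 and the next Y box lay 28 bases apart in H2-K1, H2-D1, H2-Q4 and B2m and 27 in H2-Q6 and H2-Q7. The H2-T22 promoter held its next Y box 55 bases after X2. In H2-T23, the X2 match ran on the other strand and lay nearer to the start than the Y box. Tap1 had a match to the Y box alone. Matches to different motifs did not overlap in these promoters.

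Taken singly, the Y box was in 9 of 9 promoters of these genes (37.4% of all promoters) and the response element core in 8 (23.9%). X2 was in 8 (14.1%) and the exact NF-kB letters GGGGATTCC in 4 (0.250%). Other spellings of an NF-kB site were not searched, so promoters without these letters may hold one. The shares that include this motif hold for that spelling alone. H2-Q6 and H2-Q7, the nonclassical genes with the NF-kB letters, varied most between tumors, while H2-K1 and H2-D1 hold the same letters and varied less. A match is a description of the reference letters and was not tested for binding.

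Of the heavy chains, the classical pair was the most abundant. H2-K1 (chr17:33996017-34000347, ENSMUSG00000061232) was at 326, 826 and 485 FPKM in the IgG group, replicates 1 to 3 in turn, and at 225, 318 and 314 FPKM in the anti-PD-1 group in the same order. The groups did not overlap, although the lowest IgG tumor lay close to the highest anti-PD-1 tumor. The mean was 546 ± 256 FPKM (SD, n = 3) for IgG and 286 ± 52.5 FPKM (SD, n = 3) for anti-PD-1, with a log2 fold change of -0.84 ± 0.36 (SE) on the log2(FPKM + 1) scale, and of -0.50 without IgG replicate 2. H2-D1 (chr17:35262730-35267499), the other classical gene, was at 622, 1213.1 and 980 FPKM with IgG and at 474, 539 and 557 FPKM with anti-PD-1. All anti-PD-1 tumors were again below all IgG tumors, and the 3 anti-PD-1 tumors lay within a narrow band. Its log2 fold change was -0.79 ± 0.29 (SE).

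Among the nonclassical genes, H2-Q6 and H2-Q7 covered the widest range. H2-Q6 (chr17:35424850-35430055) was at 19.2, 111 and 68.8 FPKM with IgG and at 14.2, 9.86 and 16.0 FPKM with anti-PD-1. IgG replicate 1 stood next to the anti-PD-1 tumors, and the highest tumor was 11.2 times the lowest. The group means were 66.3 ± 45.8 and 13.3 ± 3.13 FPKM (SD, n = 3 each), a log2 fold change of -1.94 ± 0.58 (SE). H2-Q7 (chr17:35439155-35443773), which encodes the Qa-2 antigen, was at 10.3, 58.0 and 47.1 FPKM with IgG and at 10.4, 6.88 and 10.2 FPKM with anti-PD-1. Here IgG replicate 1 lay within the anti-PD-1 range, so the groups overlapped, and only IgG replicates 2 and 3 stood apart. The log2 fold change was -1.67 ± 0.59 (SE).

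H2-Q4 (chr17:35379617-35385290) was at 42.6, 117 and 77.4 FPKM with IgG and at 31.3, 47.5 and 28.7 FPKM with anti-PD-1. The groups overlapped, since anti-PD-1 replicate 2 was above IgG replicate 1, and the log2 fold change was -1.04 ± 0.37 (SE).

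The H2-T genes had the lowest means of the heavy chains over the 6 tumors. H2-T23 (chr17:36029773-36032855), which encodes Qa-1, a ligand of NK cell receptors, was at 14.1, 24.0 and 20.3 FPKM with IgG and at 8.65, 16.1 and 9.36 FPKM with anti-PD-1. Anti-PD-1 replicate 2 exceeded IgG replicate 1. H2-T22 (chr17:36037128-36042747), whose product is bound by some gamma delta T cell receptors, was at 7.80, 20.4 and 14.9 FPKM with IgG and at 5.86, 6.18 and 8.79 FPKM with anti-PD-1. IgG replicate 1 again fell inside the anti-PD-1 range. The log2 fold changes were -0.74 ± 0.28 (SE) for H2-T23 and -0.88 ± 0.33 (SE) for H2-T22.

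B2m (chr2:122147686-122153083), the light chain shared by all of these heavy chains, was the most abundant of the 10 genes. It was at 1642, 4354 and 2662 FPKM with IgG and at 1006, 1661 and 1617 FPKM with anti-PD-1. IgG replicate 1 was just below the highest anti-PD-1 tumor. The log2 fold change was -0.94 ± 0.42 (SE), and -0.59 without IgG replicate 2. B2m lies on another chromosome than its partners, yet it followed H2-K1 more closely than did any other of the 10 genes (Pearson r = 0.995 over the 6 tumors).

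Tap1 (chr17:34187553-34197225), which carries peptides into the endoplasmic reticulum, was at 18.2, 32.6 and 33.6 FPKM with IgG and at 16.5, 22.03 and 17.2 FPKM with anti-PD-1. It had the smallest difference of the 10 genes, at a log2 fold change of -0.54 ± 0.26 (SE), or -0.81 without IgG replicate 1, and the groups overlapped. Its 5′ end overlaps that of Psmb9 on the other strand, and whether the counting used strand is not given in the sources used here.

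Nlrc5 (chr8:94434356-94527272) was the least abundant, at 2.63, 9.32 and 7.47 FPKM with IgG and at 1.96, 3.09 and 4.02 FPKM with anti-PD-1. IgG replicate 1 was below 2 of the anti-PD-1 tumors. Its log2 fold change was -0.80 ± 0.41 (SE), and it was -0.50 without IgG replicate 2 and -1.25 without IgG replicate 1.

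**Figure D1:**
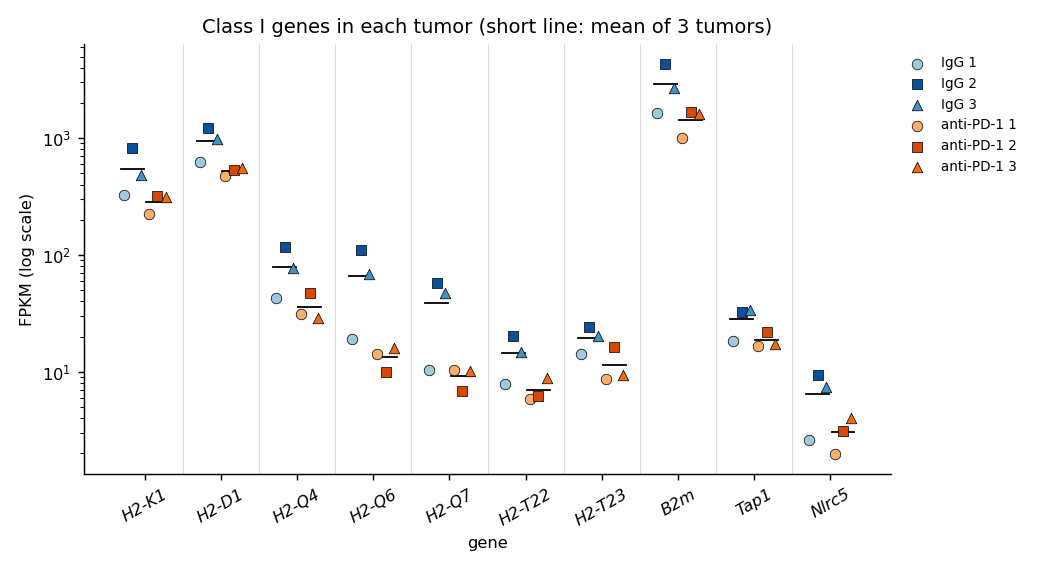
FPKM of the 10 genes on a log axis, 1 point per tumor (IgG in blue, anti-PD-1 in orange) with a short line at each group mean. The 2 highest points of each gene are IgG replicates 2 and 3, and IgG replicate 1 lies near or within the anti-PD-1 points.

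The same tumors were high for each gene. In 10 of 10 genes the 2 highest tumors were IgG replicates 2 and 3, and replicate 2 was the highest in 9 of them, Tap1 being the exception. IgG replicate 1 was below the highest anti-PD-1 tumor in 7 of the 10 genes. Over the 45 pairs of these genes, Pearson's r across the 6 tumors ran from 0.741 for H2-T23 with H2-Q7 to 0.995 for H2-K1 with B2m, which is a description of genes chosen for a shared direction.

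The median log2 fold change of the 10 genes was -0.86, against 0.0072 for the 15069 genes tested, and all 10 had a lower mean with anti-PD-1. The groups did not overlap in 3 of the 10 (H2-K1, H2-D1 and H2-Q6), and 8.75% of tested genes were lower without overlap. A lower mean by at least 1.5-fold with an unadjusted p under 0.05 in limma was met by 7 of the 10 and by 4.53% of tested genes, and 3.9% of tested genes were higher by the same limits. The genes had been chosen on this contrast, so nothing is read from these shares. After Benjamini-Hochberg adjustment no gene of the whole table passed in limma (0%), while 1848 (12.3%) had an unadjusted p under 0.05, and the smallest adjusted p was 0.0809.

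Levels within a tumor were compared between genes next to each other in the order of their means over the 6 tumors. B2m was above H2-D1, H2-D1 above H2-K1, H2-K1 above H2-Q4, H2-Q4 above H2-Q6 and H2-Q6 above H2-Q7 in 6 of 6 tumors. H2-Q7 and Tap1 could not be ordered, as H2-Q7 was the higher in 2 of 6 tumors. Over wider steps the order broke in some tumors, with Tap1 above H2-Q6 in all 3 anti-PD-1 tumors. H2-T23 was above H2-Q7 in IgG replicate 1 and anti-PD-1 replicate 2, and above H2-Q6 in anti-PD-1 replicate 2 (16.1 against 9.86 FPKM). Tap1 was above H2-T23, H2-T23 above H2-T22 and H2-T22 above Nlrc5 in 6 of 6 tumors. The FPKM of H2-K1 did not fall on whole reads with its annotated exon length, so that the length behind its level is not known here.

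Classical and nonclassical genes differed as sums in how far they ranged, while the ranges of single genes overlapped. The highest tumor was 3.67 times the lowest for H2-K1 and 2.56 times for H2-D1. It was 2.77 times for H2-T23, 3.48 for H2-T22, 4.07 for H2-Q4, 8.44 for H2-Q7 and 11.2 for H2-Q6. H2-K1 and H2-D1 together made up 91.0%, 86.1% and 86.5% of the FPKM of the 7 heavy chains with IgG and 90.9%, 90.8% and 92.3% with anti-PD-1. IgG replicates 2 and 3 thus had the smallest classical share. The summed FPKM of H2-K1 and H2-D1 was 2.92 times as high in the highest as in the lowest tumor, and that of the 5 nonclassical genes 4.69 times. The ratio of group means, IgG over anti-PD-1, was 1.84 for the classical sum and 2.84 for the nonclassical sum.

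Part of the wider range came from H2-Q6 and H2-Q7, since the sum of the other 3 nonclassical genes was 3.52 times as high in the highest as in the lowest tumor. The sum of H2-Q6 and H2-Q7 was 9.05%, 20.4% and 23.9% of H2-K1 with IgG and 10.9%, 5.27% and 8.33% with anti-PD-1. IgG replicate 1 was inside the anti-PD-1 range for this share too. By contrast, H2-Q4 was between 9.16% and 16.0% of H2-K1, H2-T23 between 2.90% and 5.08% and H2-T22 between 1.94% and 3.06%, and in each of these 3 genes the groups overlapped. H2-Q6 relative to H2-Q7 was steady, at 1.36 to 1.91 times, and so was H2-D1 relative to H2-K1, at 1.47 to 2.11 times. B2m was 1.31 to 1.84 times the summed FPKM of the 7 heavy chains.

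**Figure D2:**
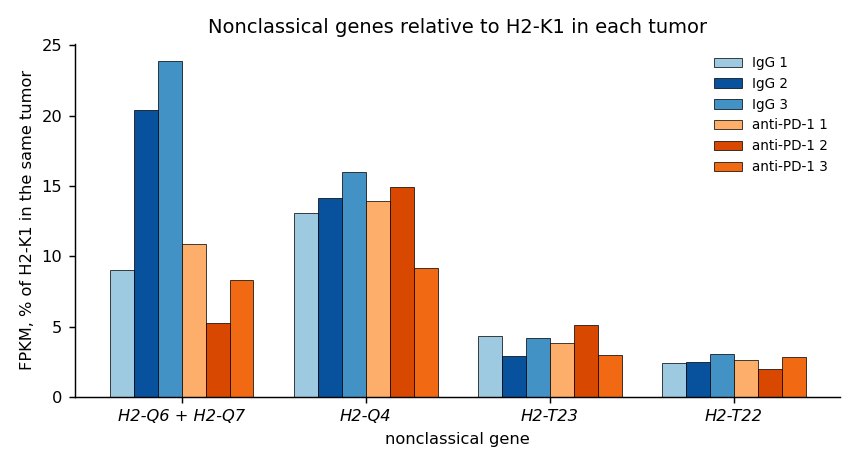
FPKM of nonclassical genes as a percent of H2-K1 in the same tumor, 1 bar per tumor. H2-Q6 with H2-Q7 reaches 20.4% and 23.9% in IgG replicates 2 and 3 and stays at or below 10.9% in the other tumors, while H2-Q4, H2-T23 and H2-T22 show no separation of the groups.

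Near-identical heavy chain genes can share or split reads, and the deposited values do not show how these were assigned. Among all stretches of 100 bases in the annotated transcripts (GENCODE M21), 12.0% of those of H2-Q7 and 10.8% of those of H2-Q6 also occurred in a transcript of another gene. The partners of H2-Q6 were above all H2-Q7 (8.36%), and those of H2-Q7 were H2-Q10 (5.56%), H2-Q5 and H2-Q6 (3.42%). H2-T22 shared 8.86%, mostly with H2-T10, H2-D1 3.59%, H2-T23 3.15%, H2-Q4 2.16% and H2-K1 0.957%. B2m, Tap1 and Nlrc5 shared none. The separate levels of H2-Q6, H2-Q7 and H2-T22 are therefore less certain than their sums. Summed over the annotated class I genes, where such sharing matters less, the FPKM was 1113, 2517 and 1803 with IgG and 824, 1023 and 1011 with anti-PD-1. The groups did not overlap in this sum.

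The H2 haplotype adds a further limit to these levels. FVB mice carry the H-2q haplotype and C57BL/6 mice H-2b, and the mm10 reference is C57BL/6, so reads of FVB alleles meet a reference of another haplotype at the most polymorphic genes of the genome. FPKM holds no allele, and whether the tumors differed in haplotype, or lost reads of 1 gene more than of another, was not tested. Between the start of H2-K1 and the end of H2-T22 (chr17:33996017-36042747, 2047 kb), 10 class I genes were tested. They had a median log2 fold change of -0.85, with 9 of them below 0. They include the 7 heavy chains chosen for lower values, so nothing is read from this median. Those not chosen were H2-Q1 (-0.57), H2-Q2 (-0.85) and H2-T24 (0.19). The 99 neighbours that are neither class I nor Tap1 had a median of 0.15. Of these 99, 1 was lower and 5 were higher by at least 1.5-fold with an unadjusted p under 0.05, against 4.53% lower and 3.9% higher of all tested genes. Per tumor, the median deviation of the neighbours from their own mean stayed between -0.09 and 0.10 on the log2 scale. The median log2 fold change of all tested genes was 0.07 on chromosome 17, -0.05 on chromosome 2 and -0.02 on chromosome 8, where these 10 genes lie.

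**Figure D3:**
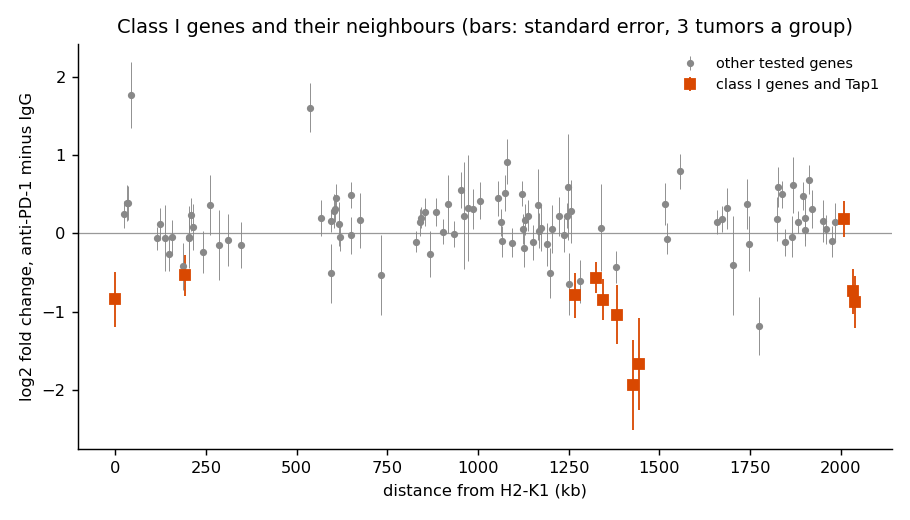
Log2 fold change (anti-PD-1 minus IgG, bars: standard error, 3 tumors per group) against the distance from H2-K1 for the genes tested between H2-K1 and H2-T22. Class I genes and Tap1 (orange), most of which were chosen for lower values, lie below 0 with the exception of H2-T24. Most of the 99 neighbours (gray) lie around a median of 0.15.

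The annotation holds 25 more class I genes on chromosome 17, of which 9 reached a mean of 0.5 FPKM, 16 did not and 6 were at 0 in every tumor. None passed the adjusted test in limma, and 3 of the 9 had an unadjusted p under 0.05, against 12.3% of all tested genes. These were H2-Q2, with a log2 fold change of -0.85 ± 0.26 (SE, adjusted p = 0.352), H2-K2, a transcribed pseudogene beside H2-K1, with -1.20 ± 0.41 (adjusted p = 0.362), and H2-Q1, with -0.57 ± 0.20 (adjusted p = 0.369). H2-T10, the near copy of H2-T22, was at 21.96, 59.0 and 36.8 FPKM with IgG and at 16.0, 23.1 and 24.2 FPKM with anti-PD-1, so that its groups overlapped (log2 fold change -0.78, adjusted p = 0.423). H2-M3, which presents formylated peptides, differed by -0.23 ± 0.27 (SE, adjusted p = 0.747). H2-T-ps and H2-M2 also had lower means (-0.53 and -0.63), while H2-T24 (0.19) and H2-M9 (0.37) had higher ones.

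Nlrc5 was then followed tumor by tumor. The other 9 genes had a median Pearson r with Nlrc5 of 0.91 and a median Spearman rho of 0.77 over the 6 tumors on the log2(FPKM + 1) scale, given without a p since the contrast that chose the genes enters them. For H2-T22 r was 0.968, for B2m 0.952, for H2-D1 0.948 and for H2-K1 0.941, and for H2-T23 it was lowest, at 0.798. An r of at least 0.8 was reached by 8 of the 9 genes and by 5.59% of all tested genes. The relation rested largely on IgG replicates 2 and 3, the tumors farthest from the median of Nlrc5. Without them, r over the 4 remaining tumors was 0.742 for H2-K1, 0.777 for B2m and 0.733 for H2-T22, but 0.458 for H2-D1, 0.268 for Tap1, 0.142 for H2-T23, -0.04 for H2-Q6, -0.10 for H2-Q4 and -0.22 for H2-Q7. Anti-PD-1 replicate 3 had the most Nlrc5 of those 4 tumors and the least H2-Q4. For H2-K1 and B2m, r over the 4 tumors rested on anti-PD-1 replicate 1, the lowest tumor for both genes and for Nlrc5. In IgG replicate 1 and anti-PD-1 replicates 2 and 3, log2 deviations were -0.22, -0.25 and -0.27 for H2-K1. For B2m they were -0.23, -0.22 and -0.25.

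With the group means removed, the median r of the 9 genes with Nlrc5 was 0.88. This takes out the mean difference between the groups but not the choice of the genes. In each of them IgG replicate 1 lay below the other IgG tumors, which were the highest of all tumors. A choice by lower anti-PD-1 values can favour this gap, which remains within the IgG group. The share and the permutation p-values that follow are therefore a description and cannot test a link with Nlrc5. An r of at least 0.8 was reached by 7 of 9 genes, against 4.13% of all tested genes. An exact permutation of Nlrc5 within the groups has 36 arrangements and cannot go below p = 0.0278 (two-sided), a value reached by H2-D1 (r = 0.969) and H2-T22 (r = 0.965). B2m had an exact permutation p of 0.0556 (r = 0.929), H2-K1 0.111 (r = 0.909), Tap1 0.167 (r = 0.849) and H2-T23 0.222 (r = 0.648). Adjusted over the 15068 genes compared with Nlrc5, no gene passed, and the adjusted p was 1 in each of the 9. Without IgG replicate 1, the median r within groups was 0.32, so the value depended on the distance of this tumor from the other IgG tumors.

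**Figure D4:**
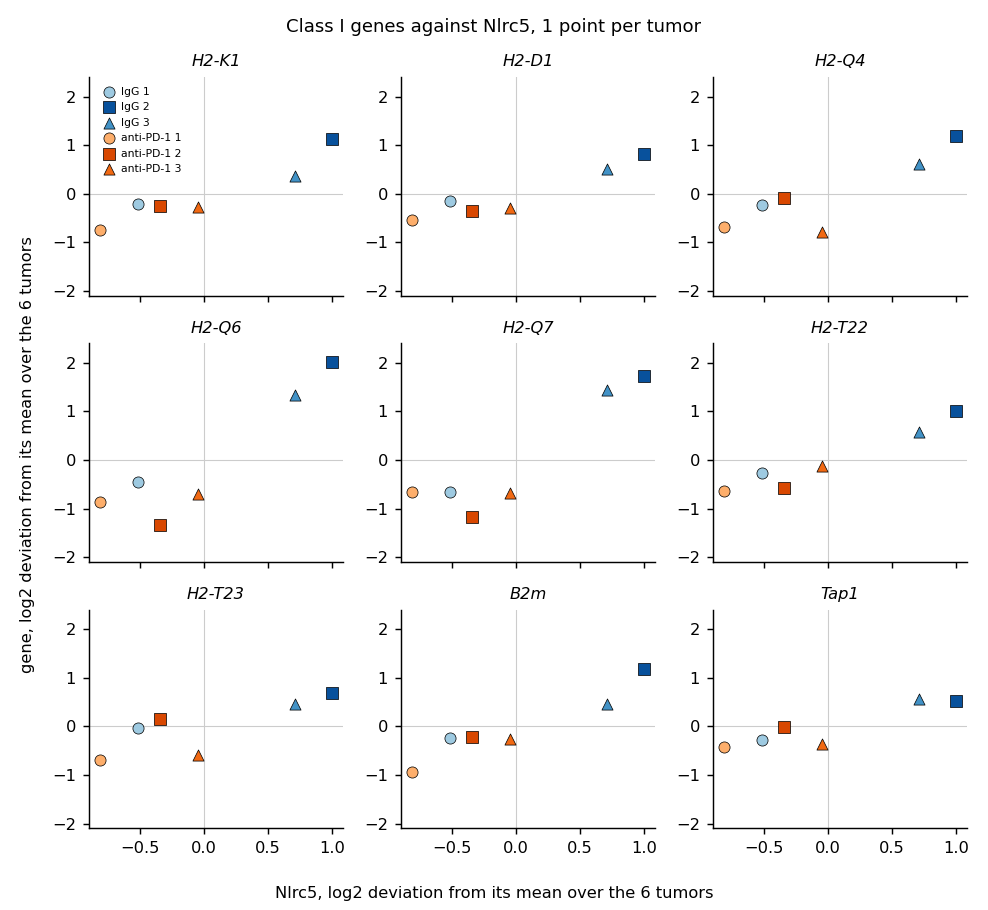
Deviation of each gene from its own mean over the 6 tumors against that of Nlrc5, both in log2 units, with 1 point per tumor. IgG replicates 2 and 3 stand at the upper right in each panel. Over the other 4 tumors r was 0.742 for H2-K1, 0.777 for B2m, 0.733 for H2-T22 and -0.22 for H2-Q7. For H2-K1 and B2m that r rests on the low point of anti-PD-1 replicate 1, and the remaining tumors lie nearly level.

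Outside the H2 family, the 5 genes most like Nlrc5 over the 6 tumors were Arid3b (r = 0.989), Snap23 (0.984), Efcab14 (0.977), Rasef (0.977) and Vps11 (0.976). With the H2 family left out, B2m ranked 46 and Tap1 ranked 217 among the tested genes. The 5 most like H2-K1 were Gm20075 (0.996), B2m and Nsmaf (both 0.995), Map2 (0.992) and Art3 (0.990). Nlrc5 ranked 119 for H2-K1, again without the H2 family. With 6 tumors, of which 2 stand apart, many genes reach such values.

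The other genes of the class I pathway showed no common direction. Of 14 genes for peptide cutting, transport and loading, none had an unadjusted p under 0.05 in limma (12.3% of all tested genes), and on the log2(FPKM + 1) scale 5 had lower and 9 higher means, with a median log2 fold change of 0.06. Tap2, the partner of Tap1 in the transporter, was at 23.4, 23.7 and 17.8 FPKM with IgG and at 19.9, 30.8 and 27.0 FPKM with anti-PD-1. It had a log2 fold change of 0.24 ± 0.21 (SE, adjusted p = 0.657) and an r of -0.21 with Nlrc5. Tapbp, the tapasin that bridges the transporter and heavy chains, differed by 0.17 ± 0.25 (SE, adjusted p = 0.806). The immunoproteasome subunit Psmb9, divergent from Tap1, differed by -0.42 ± 0.30 (SE, adjusted p = 0.600) and had an r of 0.946 with Nlrc5, whereas Psmb8 differed by -0.06 ± 0.31 (SE) and had an r of 0.402. Psme1 and Psme2, the proteasome activator subunits, had the largest higher means, at 0.41 ± 0.25 and 0.46 ± 0.27 (SE).

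Transcriptional regulators of class I gave 1 gene of 21 that was at least 1.5-fold lower with an unadjusted p under 0.05, near the 4.53% of all tested genes, and none higher. That gene was Jak1, a kinase of interferon receptors, at 28.7, 46.9 and 43.4 FPKM with IgG and at 21.1, 18.8 and 20.8 FPKM with anti-PD-1. Its groups did not overlap, with a log2 fold change of -0.91 ± 0.21 (SE, adjusted p = 0.344). Irf1, which binds the response element, differed by -0.12 ± 0.25 (SE, adjusted p = 0.868). Stat2 differed by -0.42 ± 0.19 and Nfya, a subunit of the factor that binds the Y box, by 0.38 ± 0.18 (SE).

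**Figure D5:**
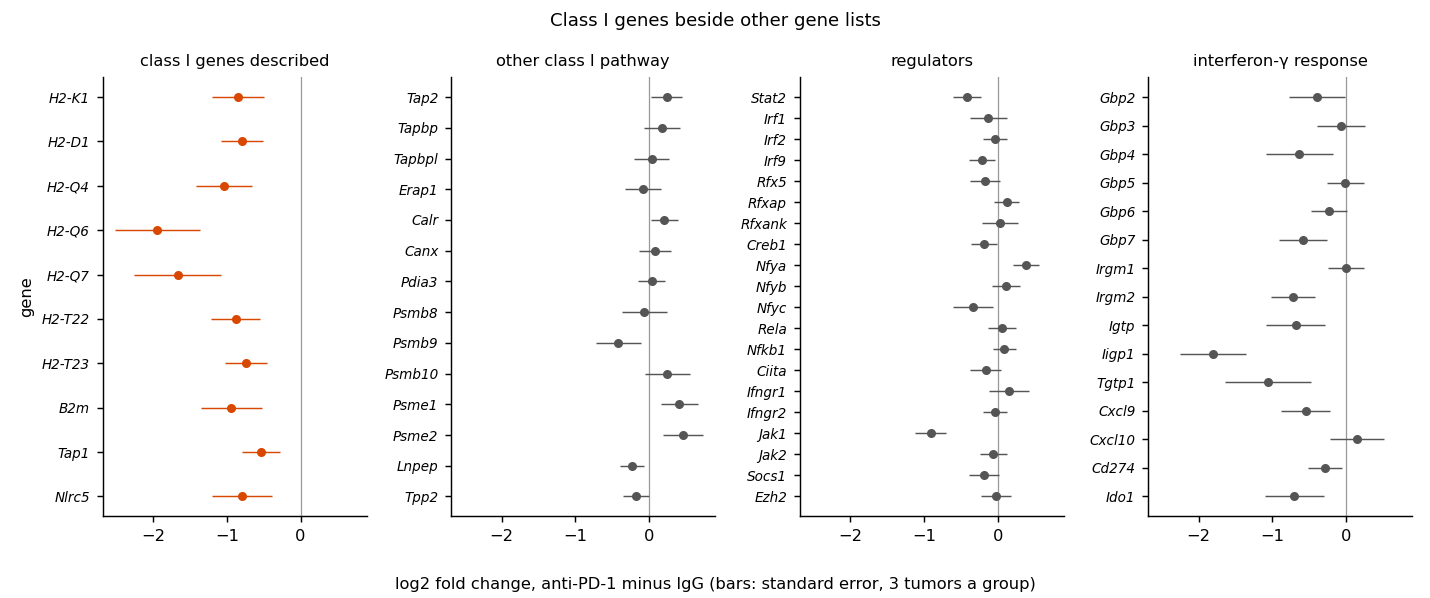
Log2 fold change (anti-PD-1 minus IgG, bars: standard error, 3 tumors per group) of the 10 genes, of 14 other class I pathway genes, of regulators and of 15 interferon-gamma response genes. The 10 genes lie between -1.94 and -0.54 by their choice, the pathway genes scatter around a median of 0.06, and Jak1 and Iigp1 are the lowest of their panels.

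B2m also pairs with heavy chains that are encoded outside the MHC. Of 5 such genes, 4 were tested and 2 were at least 1.5-fold lower with an unadjusted p under 0.05 (4.53% of all tested genes). Cd1d1, which presents lipids to NKT cells, was at 7.40, 17.6 and 17.3 FPKM with IgG and at 5.70, 2.63 and 3.63 FPKM with anti-PD-1, a log2 fold change of -1.56 ± 0.37 (SE, adjusted p = 0.344). Mr1, which presents vitamin metabolites to MAIT cells, differed by -0.63 ± 0.17 (SE, adjusted p = 0.344). In both, all anti-PD-1 tumors were below all IgG tumors. Fcgrt, the neonatal Fc receptor, differed by -0.42 ± 0.38 (SE, adjusted p = 0.671).

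Interferon-gamma response genes had lower mean log2(FPKM + 1) in 13 of 15 cases, with a median log2 fold change of -0.55, and 2 were at least 1.5-fold lower with an unadjusted p under 0.05 (4.53% of all tested genes). Iigp1, an immunity-related GTPase, was at 55.1, 217 and 124 FPKM with IgG and at 31.4, 28.9 and 35.9 FPKM with anti-PD-1, with no overlap (log2 fold change -1.81 ± 0.45, SE, adjusted p = 0.344). Irgm2 differed by -0.72 ± 0.30 (SE, adjusted p = 0.401). Tgtp1 differed by -1.06 ± 0.59 (SE, adjusted p = 0.493), and its highest tumor was again IgG replicate 2. In the type I interferon list, 2 of 17 genes, Ifit2 (-0.77 ± 0.25, SE, adjusted p = 0.355) and Zbp1 (-0.69 ± 0.22, SE, adjusted p = 0.355), met the same limits, and the median was -0.32. The third named, Ifi44, differed by -0.59 ± 0.35 (SE, adjusted p = 0.523). MHC class II genes gave none of 7, with a median of -0.05, and H2-Ab1, H2-Ob and H2-Aa differed by 0.36 ± 0.38, -0.24 ± 0.27 and -0.15 ± 0.45 (SE). The summed FPKM of the class II list was 222 to 568 with IgG and 349 to 409 with anti-PD-1.

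Several markers of T cells and of NK and cytotoxic cells were highest in the same tumors as the class I genes, and others were not. The summed FPKM of 8 T cell markers was 2.02, 6.40 and 2.71 with IgG and 1.73, 1.995 and 2.09 with anti-PD-1. IgG replicate 2 had the highest sum, although Cd4 was highest in anti-PD-1 replicate 3 (0.976 FPKM) and Cd2 in anti-PD-1 replicate 2 (0.494 FPKM). Only 1 of the 8, Lck, reached the level for testing, with a log2 fold change of -0.45 ± 0.24 (SE, adjusted p = 0.482). For 8 NK and cytotoxic markers the sum was 3.32, 11.1 and 5.07 FPKM with IgG and 2.56, 1.88 and 1.36 FPKM with anti-PD-1, with no overlap, and 4 of the 8 were tested. Gzmb, a protease of cytotoxic granules, differed by -1.45 ± 0.35 (SE, adjusted p = 0.344) and Nkg7, a granule membrane protein, by -0.68 ± 0.21 (SE, adjusted p = 0.355). Klrb1c and Prf1 had higher means with anti-PD-1, Klrb1c at 0.0698 FPKM or less with IgG and 0.0707 to 0.5002 FPKM with anti-PD-1, and Prf1 with a mean of 0.0157 FPKM and 0.0686 FPKM. Both sums had IgG replicates 2 and 3 above the rest, as did the class I genes, and the part of these cells in the class I levels was not tested.

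No marker of these lists was at 0 in all 6 tumors. Cd3d and Cd3e, the defining T cell genes, were at 0 in anti-PD-1 replicate 2 and at most at 1.05 and 0.304 FPKM elsewhere. The summed B cell markers were 0.156 to 3.36 FPKM with IgG and 0.223 to 0.801 FPKM with anti-PD-1, and none of the 4 was tested. Ptprc, carried by all leukocytes, was at 1.19 to 2.20 FPKM with IgG and 1.53 to 2.12 FPKM with anti-PD-1. The 8 macrophage markers all had higher mean log2 values with anti-PD-1, though the mean FPKM of Cd14 was lower, and their sum was 229 to 645 FPKM with IgG and 452 to 566 FPKM with anti-PD-1. Of these, Cd68, a lysosomal protein, was at least 1.5-fold higher with an unadjusted p under 0.05, at 13.7 to 18.1 FPKM with IgG and 22.1 to 30.5 FPKM with anti-PD-1 (log2 fold change 0.76 ± 0.19, SE, adjusted p = 0.344).

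Epithelial markers split between the groups. Epcam, an adhesion protein, was at 683 to 878 FPKM with IgG and 986 to 1142 FPKM with anti-PD-1, and Erbb2 at 20.2 to 22.97 FPKM and 25.01 to 31.3 FPKM, both without overlap (log2 fold change 0.43 ± 0.22 and 0.34 ± 0.15, SE). Krt19, a keratin, was at 7.39 to 77.3 FPKM with IgG and 1.69 to 5.23 FPKM with anti-PD-1, lower without overlap (log2 fold change -2.03 ± 0.85, SE, adjusted p = 0.404). Elf5 and Cdh1 had lower means (-0.60 ± 0.28 and -0.34 ± 0.24, SE). The 7 markers summed to 1934 to 2679 FPKM with IgG and 2544 to 3657 FPKM with anti-PD-1, and their part in the class I levels was not tested.

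Of the receptors that read class I, 3 of 7 were tested. Pirb, an inhibitory receptor of myeloid cells, was higher without overlap, at 0.644 to 0.988 FPKM with IgG and 1.89 to 2.04 FPKM with anti-PD-1 (log2 fold change 0.70 ± 0.18, SE, adjusted p = 0.344). Klrd1 and Lilrb4a differed by -0.40 ± 0.32 and -0.19 ± 0.26 (SE).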

How the data were processed

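RNAseq of 3 IgG and 3 anti-PD-1 tumors was used, and groups were taken from the sample labels. The authors deposited FPKM for 54532 Ensembl gene IDs per tumor on mm10. The submitters' processing notes name FastQC 0.11.9, cutadapt 3.5, Bowtie2 2.4.1, RSEM 1.3.1, DESeq2 1.36.0 and R 4.1. How FPKM was derived is not given in the sources used here. FPKM times the exon length of GENCODE M21 (54495 IDs matched, 37 did not) fell within 0.1 of a whole read in 97.0% of detected IDs with a length, from which the reads per tumor were taken.

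FPKM was divided by median-of-ratios factors (1.00 to 1.01), 1 was added and log2 taken. The 15069 genes with a mean of at least 0.5 FPKM, all 10 genes described among them, were compared with limma 3.58.1 in R 4.3.3 (eBayes with trend, two-sided, Benjamini-Hochberg adjustment). The study tested counts, whereas the files hold FPKM, hence limma on a log scale. Correlations, motifs and shared stretches were computed in Python 3.11.15. The scripts were tested on simulated data. The 10 genes, the lists and the rule for named genes were chosen with earlier results of these data known. Named were all 10, each other class I gene of at least 0.5 FPKM, up to 3 genes per pathway or response list with the largest absolute log2 fold change, the single genes Irf1, Tap2, Tapbp, Psmb8, Psmb9 and another that is not reported here, and the 5 genes most like Nlrc5 and H2-K1. Single cell type markers and Gm33973 were named after their values were seen. Summed FPKM of dendritic cell, fibroblast, endothelial, adipocyte and muscle markers overlapped between the groups. Alternatives were 0.1 as pseudocount, other filters, FPKM as deposited, quantile normalization, no trend, voom on recovered reads, a replicate block and leaving out each tumor.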

Additional observations from a re-analysis of the deposited data

How the results depend on the processing

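All 140 values of the 10 genes (10 genes under 14 alternatives) kept their direction, for which the genes had been chosen. The other filters, no trend and the replicate block leave these fold changes unchanged by construction, so their part of the count was fixed in advance. Leaving out 1 tumor moved 4 of the 10 log2 fold changes by over 1.5 times. Without IgG replicate 2, H2-K1 was -0.50, B2m -0.59 and Nlrc5 -0.50, and without IgG replicate 1, Tap1 was -0.81 and Nlrc5 -1.25. The count of genes with an adjusted p under 0.05 was 0 and became 1 with voom on recovered reads. Leaving out each tumor gave 0 to 12 (12 without IgG replicate 1), 388 to 1242 lower genes (683 with all tumors, 388 without IgG replicate 2, 455 without anti-PD-1 replicate 3, 1242 without IgG replicate 1), 369 to 1000 higher genes (587 with all tumors, 369 without IgG replicate 2 and 1000 without IgG replicate 1) and 1725 to 2688 lower genes without overlap (1319 with all tumors, 2688 without IgG replicate 1, 2217 without IgG replicate 3, and 2278 and 2029 when anti-PD-1 replicates 1 and 2 were left out). The median of the 10 genes was -0.59 to -1.24, with IgG replicates 2 and 1 left out, respectively. The near-0 median of the other class I pathway genes turned to -0.0285 under quantile normalization and lay between -0.0593 (without anti-PD-1 replicate 2) and 0.17. The median r with Nlrc5 within groups was 0.32 (without IgG replicate 1) to 0.93. The causes were not tested, beyond fewer tumors per group. With a replicate block, 671 genes were lower and 663 higher. The replicate numbers did not pair the tumors (r of same-numbered tumors -0.16, 0.0051 and 0.19). For the summed heavy chain FPKM, only FPKM as deposited, voom and leaving out tumors were run. At 3 tumors per group an exact permutation of a single gene cannot go below 0.1. Counting error is small for these genes, the least being 426 reads on Nlrc5.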
